A study of Mus musculus with 14 samples.

Results

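Genes of potassium channels were examined in hippocampal RNA-seq from mice kept under intermittent hypoxia (IH), sustained hypoxia (SH) or normal oxygen. The members are all genes whose symbol starts with Kcn, which were 51 of the 7756 genes in the deposited table, in 16 subfamilies. Of these, 49 averaged 40 counts or more in each of the 3 groups and were tested, among 7338 genes tested in all. The remaining members, Kcna5 and Kcnh6, are given by their levels only. All mice were wild-type C57BL/6J males, 8 weeks old at the start, and the experiment lasted 28 days. The control group (4 libraries) breathed 21% oxygen. The IH group (5 libraries) breathed oxygen that alternated between 10% and 21% in cycles of 2 min for 8 h per day. The SH group (5 libraries) breathed 10% oxygen for 8 h per day. The control libraries are from a preliminary experiment and the other libraries from the main one, so for every difference against control the treatment and the experiment cannot be told apart. The labels number the libraries of a group as replicates and do not say that each is a separate mouse, so p-values measure the spread between libraries.

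Potassium channels let potassium leave the cell or, in some subfamilies, enter it, and so set the resting potential, the shape of the action potential and how often a neuron fires. Several pore-forming subunits assemble into a channel, and auxiliary subunits change their gating and their transport to the membrane. In the hippocampus, voltage-gated channels of axons and dendrites limit excitability, inward rectifiers hold the resting potential, and astrocytes take up the potassium that firing neurons release.

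Totals over the 7756 genes of the deposited table ran from 8352355 to 11777101 counts in control. They ran from 7568082 to 10578076 in IH, and from 7203659 to 10480839 in SH. The 51 potassium channel genes took 0.652% to 0.684% of these totals in control, 0.637% to 0.684% in IH and 0.633% to 0.66% in SH. Values are normalized counts, that is, counts scaled by TMM library size, and changes are log2 fold changes with their standard error (SE) from edgeR's quasi-likelihood test. P-values were adjusted over all genes tested, and a gene was called at an adjusted p under 0.05. The authors had filtered the deposited table for genes with a signal away from that of controls. Adjusted p-values and calls therefore hold only within this filtered table. Choroid plexus genes stood apart in 6 libraries. Ttr, the transthyretin made by that tissue, had over 10000 normalized counts in control 4, IH 1, IH 4, SH 1, SH 2 and SH 5, and between 264.2 and 2698 in the other libraries. Counts of members called are therefore also given without these libraries.

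Of the 49 members, 7 were called in IH vs. control, 6 lower and 1 higher. These were 14.3% of the members, whereas 10.9% of all genes tested were called. Among all genes, 4.85% were called lower and 6.08% higher, and among the members 12.2% and 2.04%. In SH vs. control 9 members were called, 8 lower and 1 higher, or 18.4% of the members against 20.6% of all genes. Here 10.5% of all genes were lower and 10.2% higher, and of the members 16.3% and 2.04%. At an adjusted p under 0.01 (edgeR), 4 members or 8.16% passed in IH and 5 or 10.2% in SH, against 2.78% and 7.92% of all genes. In IH vs. SH edgeR called 0 members and DESeq2 called 0, while 2.37% of all genes were called. At an unadjusted p under 0.05, 4 members differed between IH and SH, 1 lower and 3 higher in IH, while 15.8% of all genes did. The median log2 fold change of the members was -0.076 in both comparisons against control, and that of all genes was -0.015 in IH and 0.0035 in SH. Leaving out the 6 choroid plexus-rich libraries left 0 members called in IH, 1 in SH and 0 in IH vs. SH. The log2 fold changes in IH were then -0.37 for Kcnh3, -0.49 for Kcng2, -0.66 for Kcnk12 and 0.34 for Kcnj10, beside -0.37, -0.48, -0.73 and 0.31 with all libraries. In that smaller set of 3 control, 3 IH and 2 SH libraries, 0.654% of all genes were called in IH, 0.362% in SH and 0% in IH vs. SH.

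**Figure D1:**
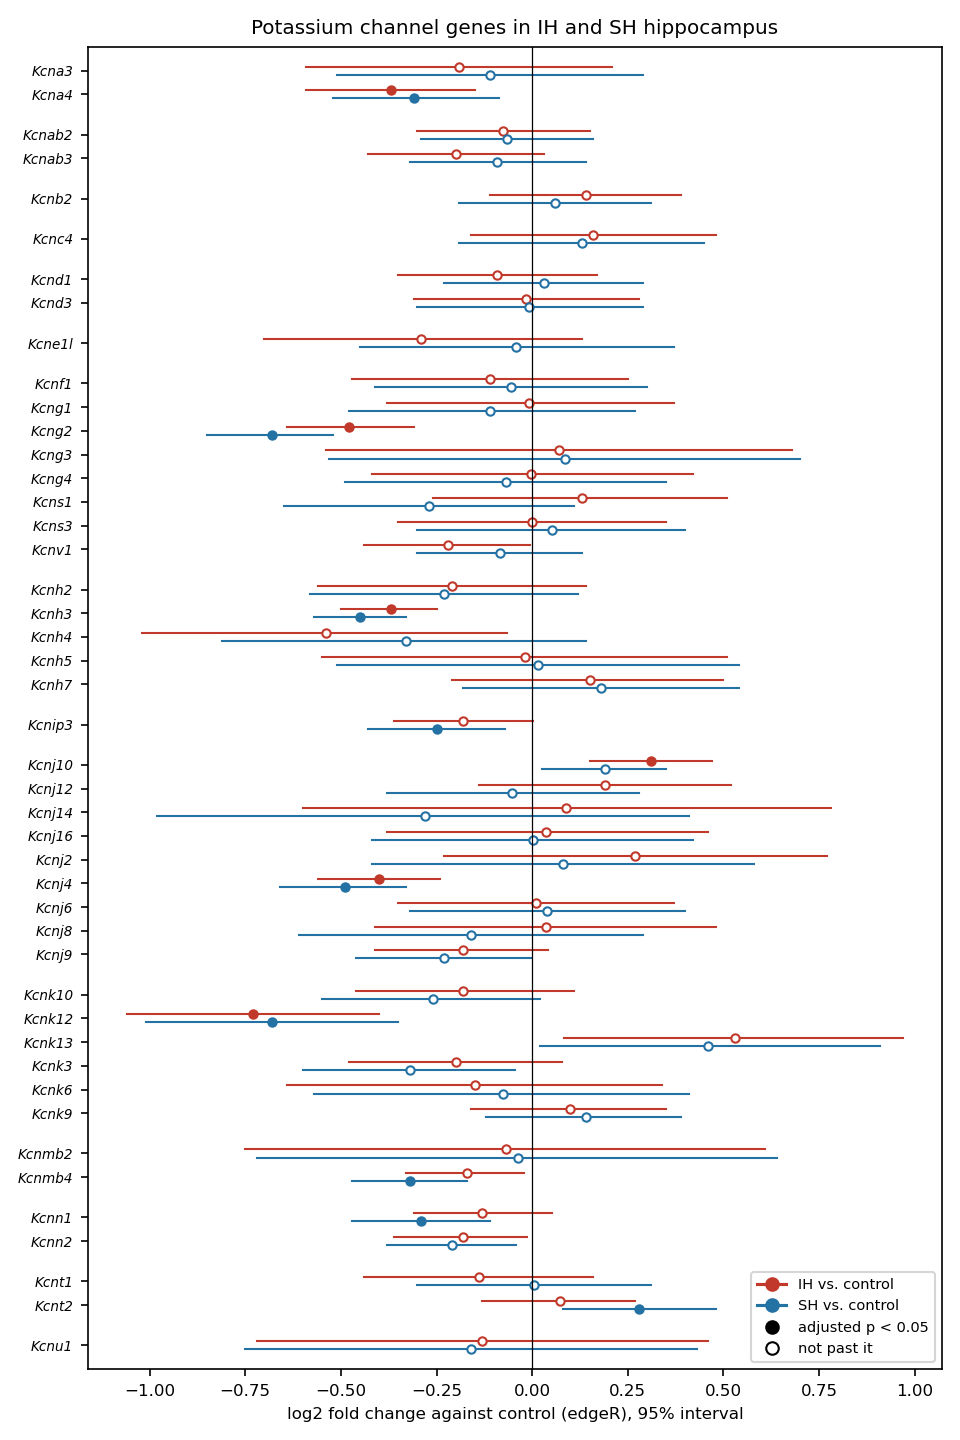
Log2 fold changes of 45 potassium channel genes in IH (red) and SH (blue) against control, with 95% intervals from edgeR, grouped by subfamily. Filled points have an adjusted p under 0.05. Most filled points lie to the left of 0, with Kcnj10 in IH and Kcnt2 in SH to the right. Among those left out are Kcne2 and Kcnj13, whose intervals span more than 4 log2 units.

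The genes called against control can be listed by role. The pore-forming or modifier subunits Kcna4, Kcng2, Kcnh3, Kcnj4 and Kcnk12 were lower in both IH and SH. Both comparisons used the same 4 control libraries, so the shared list is not 2 independent observations. Kcnj10 (higher) was called in IH, and Kcnip3, Kcnmb4, Kcnn1 (lower) and Kcnt2 (higher) in SH. None of these 5 differed between IH and SH after adjustment, so a call in one group is not shown to be a difference between the groups. Promoters of 4 called genes are shown to let their GC content and motifs be seen beside the calls. Each is the 250 bases before the RefSeq start (GRCm38.p6, 5′ to 3′ on the gene's strand), at chr2:107290339-107290588 (+) for Kcna4, chr15:79505242-79505491 (-) for Kcnj4, chr17:87797995-87798244 (-) for Kcnk12 and chr1:172340960-172341209 (+) for Kcnj10. Capitals mark GGGCGG, the core of the GC box, or its reverse complement CCGCCC.
Kcna4: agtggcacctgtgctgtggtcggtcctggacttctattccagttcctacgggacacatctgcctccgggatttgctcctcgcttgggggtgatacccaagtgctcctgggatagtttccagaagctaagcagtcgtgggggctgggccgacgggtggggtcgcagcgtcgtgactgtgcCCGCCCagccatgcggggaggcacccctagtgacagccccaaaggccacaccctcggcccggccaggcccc
Kcnj4: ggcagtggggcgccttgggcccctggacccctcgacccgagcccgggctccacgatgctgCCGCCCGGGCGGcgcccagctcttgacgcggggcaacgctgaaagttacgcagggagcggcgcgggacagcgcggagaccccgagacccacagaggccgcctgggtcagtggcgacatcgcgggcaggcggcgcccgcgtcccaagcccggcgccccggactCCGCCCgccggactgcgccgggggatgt
Kcnk12: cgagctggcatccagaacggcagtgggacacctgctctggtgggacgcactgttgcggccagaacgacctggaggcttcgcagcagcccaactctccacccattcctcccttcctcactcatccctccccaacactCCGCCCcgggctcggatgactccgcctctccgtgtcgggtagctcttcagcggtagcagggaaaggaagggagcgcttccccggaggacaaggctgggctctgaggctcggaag
Kcnj10: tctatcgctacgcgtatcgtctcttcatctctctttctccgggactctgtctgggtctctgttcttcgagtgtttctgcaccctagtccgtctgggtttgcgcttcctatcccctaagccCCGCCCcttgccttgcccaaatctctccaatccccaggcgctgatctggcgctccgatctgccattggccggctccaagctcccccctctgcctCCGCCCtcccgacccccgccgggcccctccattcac

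On both strands, GGGCGG was found in 52.2% of the 46 windows of 34 members, and in 32.7% of 32851 RefSeq windows. The median GC content of these windows was 61.4% for the members and 52.4% for all. ACGTG, one form of the core of the hypoxia response element, was found in 15.2% of the member windows and 16.6% of all. Other forms of this core were not counted. CACGTG, the E-box that contains ACGTG, was in 4.35% and 6.02%. TGACGTCA, the cAMP response element, was in 0% and 1.55%. Of the 11 members called in IH or SH, 8 had a window. Of their 11 windows 7 held the GC box core, and none held the hypoxia, E-box or cAMP motif. Kcnh3 and Kcng2 are named here without a printed sequence.

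Among voltage-gated subunits, Kcnh3 and Kcng2 fell in both groups. Kcnh3, a voltage-gated channel of forebrain neurons from the ether-a-go-go family, lies on chromosome 15 from 99122225 to 99140710 (GRCm39). Its normalized counts in control 1 to 4 were 2817, 2502, 2497 and 2607. They were 1926, 2030, 1998, 2073 and 2020 in IH 1 to 5, and 2011, 1737, 1913, 1860 and 1987 in SH 1 to 5. Every IH and SH library was below every control library. In IH Kcnh3 fell by 22.9% (log2 fold change -0.37, SE 0.0566, adjusted p = 0.0013, edgeR), and in SH it fell by 27% (-0.45, SE 0.0566, adjusted p = 0.000289). With trends on GC content and length removed, the log2 fold changes shrank to -0.19 in IH (adjusted p = 0.0139, edgeR) and -0.20 in SH (0.00923). With fewer cells of a type or less RNA per cell, bulk tissue gives the same lower count, and these cannot be told apart for this or any other member. The IH and SH ranges overlapped, and the log2 difference of IH from SH was 0.079 (95% interval -0.035 to 0.19). Exons of Kcnh3 share 473 and 428 bases with a pair of long noncoding RNAs and 14 bases with Mcrs1 on the opposite strand.

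Kcng2 encodes a silent subunit that forms no channel alone and modifies Kv2 channels. Its normalized counts in control 1 to 4 were 776.2, 724.4, 816.5 and 816.1. In IH 1 to 5 they were 567.4, 567.1, 591.6, 591.6 and 494.7, and in SH 1 to 5 they were 547.7, 469.2, 455.7, 492.3 and 472. All hypoxia libraries were below all controls, and the IH and SH ranges overlapped through IH 5 and SH 1. Kcng2 fell by 28.2% in IH (log2 fold change -0.48, SE 0.0774, adjusted p = 0.002, edgeR) and fell by 37.8% in SH (-0.68, SE 0.0776, adjusted p = 0.000155). Its IH vs. SH difference had the smallest adjusted p among the members. IH was above SH by 0.21 on the log2 scale (95% interval 0.048 to 0.36, adjusted p = 0.175, edgeR), which did not pass. Of the members called, only Kcng2 in SH kept its call without the choroid plexus-rich libraries (adjusted p = 0.0424, edgeR). Its exons share 1158 bases with Slc66a2 on the opposite strand. The library kit marked strand, but the strand setting of the counting is not given in the sources used here, so reads of such pairs may not have been told apart.

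The other silent subunits did not pass in any comparison. Over Kcnf1, Kcng1, Kcng2, Kcng3, Kcng4, Kcns1, Kcns3 and Kcnv1, 6 of 8 were below 0 in each comparison against control, with medians of -0.0059 in IH and -0.075 in SH. Kcnf1 was the most abundant by mean normalized count, at 1676 ± 254.3 (SD, n = 4) in control, 1554 ± 310.8 (n = 5) in IH and 1613 ± 365 (n = 5) in SH. Kcnv1 had normalized counts of 940, 1093, 1015 and 984.8 in control 1 to 4, 930, 817.3, 951.8, 902.8 and 722.9 in IH 1 to 5, and 1094, 997.8, 1021, 857.1 and 789 in SH 1 to 5. Its groups overlapped and its log2 fold change in IH was -0.22 (adjusted p = 0.157, edgeR). After removal of GC content and length trends it was -0.39 (adjusted p = 0.0462). Kcns1 gave the largest log2 difference of IH from SH among the members with an unadjusted p under 0.05, 0.40 (95% interval 0.035 to 0.76, adjusted p = 0.26, edgeR). Its normalized counts were 256, 217.9, 286.2, 252.9 and 173.7 in IH 1 to 5 and 196.6, 191.6, 222.4, 166.2 and 124.8 in SH 1 to 5. Those ranges overlapped, and the controls were at 275.7, 198, 192.1 and 203.5.

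Kcna4 encodes Kv1.4, an A-type channel that inactivates fast, and lies on chromosome 2 from 107117626 to 107128847 (GRCm39). In normalized counts it was at 619.7, 704.1, 765.4 and 712.7 in control 1 to 4, 542.3, 463.7, 615.4, 504.8 and 583.2 in IH 1 to 5, and 492.7, 519.4, 582, 577.2 and 663.3 in SH 1 to 5. All IH libraries were below all controls, whereas SH 5 lay above control 1. Kcna4 fell by 22.6% in IH (log2 fold change -0.37, SE 0.102, adjusted p = 0.0308, edgeR) and fell by 19.1% in SH (-0.31, SE 0.102, adjusted p = 0.0459). The IH call was lost without control 2, control 3, control 4, IH 1, IH 2 or IH 4, each left out singly, with adjusted p-values between 0.0563 and 0.0792. The SH call was lost without 9 of the 14 libraries, with adjusted p-values up to 0.116 without control 3, and with scaling by library total (0.0602, edgeR) or no filter on low counts (0.0514). Unlike most members called, Kcna4 moved further from control when GC content and length trends were removed, to -0.48 in IH (adjusted p = 0.0124, edgeR) and -0.45 in SH (adjusted p = 0.0139).

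Kcnab2, which encodes a cytoplasmic beta subunit of Kv1 channels, had the highest level per kilobase of transcript, with a mean of 3590 normalized counts per kilobase over all libraries. Also high by this measure were Kcnn2 (866), Kcnj10 (791) and Kcnip3 (746), and last were Kcna5 (11.5) and Kcnh6 (8.58). Kcnab2 reached 17051 ± 1015 normalized counts (SD, n = 4) among controls, 16178 ± 1448 (n = 5) in IH and 16275 ± 2616 (n = 5) in SH, and its log2 fold changes were -0.076 (95% interval -0.30 to 0.15) and -0.067 (-0.29 to 0.16). Kcnab3, another beta subunit, had 665.2, 469.4, 569.4 and 602.8 in control 1 to 4, 426.3, 524.8, 495, 523.9 and 539.8 in IH 1 to 5, and 537.2, 575.7, 444.7, 572.2 and 574 in SH 1 to 5. These groups overlapped, and it did not pass (-0.20 in IH, adjusted p = 0.224, edgeR, and -0.092 in SH, adjusted p = 0.571). Kcna5, a delayed rectifier of the Kv1 family, was at 27.6 ± 8.86 (SD, n = 4) in control, 33.9 ± 11.8 (n = 5) in IH and 36.3 ± 11 (n = 5) in SH, below the limit for testing.

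Kcnip3 encodes a calcium-binding protein that joins Kv4 channels and also binds DNA as a repressor. It lies on chromosome 2 from 127298418 to 127364014 (GRCm39). Its normalized counts were 2481, 2184, 2190 and 2202 in control 1 to 4, 2159, 2286, 1964, 1929 and 1671 in IH 1 to 5, and 1886, 2046, 1988, 1920 and 1670 in SH 1 to 5. The SH libraries lay below the controls, with IH 2 inside the control range. Kcnip3 fell by 16% in SH (log2 fold change -0.25, SE 0.0848, adjusted p = 0.0468, edgeR), and in IH the value was -0.18 (adjusted p = 0.173). The SH call was lost without any 1 of 11 of the 14 libraries, up to an adjusted p of 0.144 without control 1. It was also lost with scaling by library total (adjusted p = 0.0772, edgeR), no filter on low counts (0.0546) and GC content and length trends removed (0.21). The Kv4 channels Kcnd1 and Kcnd3 had log2 fold changes of -0.092 and -0.017 in IH and 0.031 and -0.008 in SH, and neither was called. Kcnd3 was at 2552 ± 229.5 (SD, n = 4) in control, 2523 ± 357.4 (n = 5) in IH and 2538 ± 538.4 (n = 5) in SH.

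The other voltage-gated subunits described here were not called. Kcnc4, of the Kv3 family that lets neurons fire fast, was at 1467 ± 266.2 normalized counts (SD, n = 4) among controls, 1643 ± 326.2 (n = 5) in IH and 1609 ± 242.6 (n = 5) in SH. Against control it differed on the log2 scale by 0.16 (95% interval -0.16 to 0.48) and 0.13 (-0.19 to 0.45). Kcnb2, a delayed rectifier, was at 603.5 ± 55.4 (SD, n = 4), 663.2 ± 65.7 and 628.7 ± 101.6 (n = 5 each) in control, IH and SH. Of the ether-a-go-go family, 5 of 6 members were tested and Kcnh3 was the single one called, with family medians of -0.21 in IH and -0.23 in SH. Kcnh4, a relative of Kcnh3, had 97.4, 48.3, 79.8 and 78.3 in control 1 to 4, 54.3, 46.7, 35.8, 59.3 and 63.9 in IH 1 to 5, and 66.4, 69.7, 45, 55 and 64.7 in SH 1 to 5. Its groups overlapped, and its log2 fold change in IH, -0.54, had a 95% interval from -1.02 to -0.065 (adjusted p = 0.121, edgeR). Kcnh6, not tested, was at 52 ± 12.2 (SD, n = 4) in control, 31.3 ± 15.5 (n = 5) in IH and 34.7 ± 5.82 (n = 5) in SH.

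**Figure D2:**
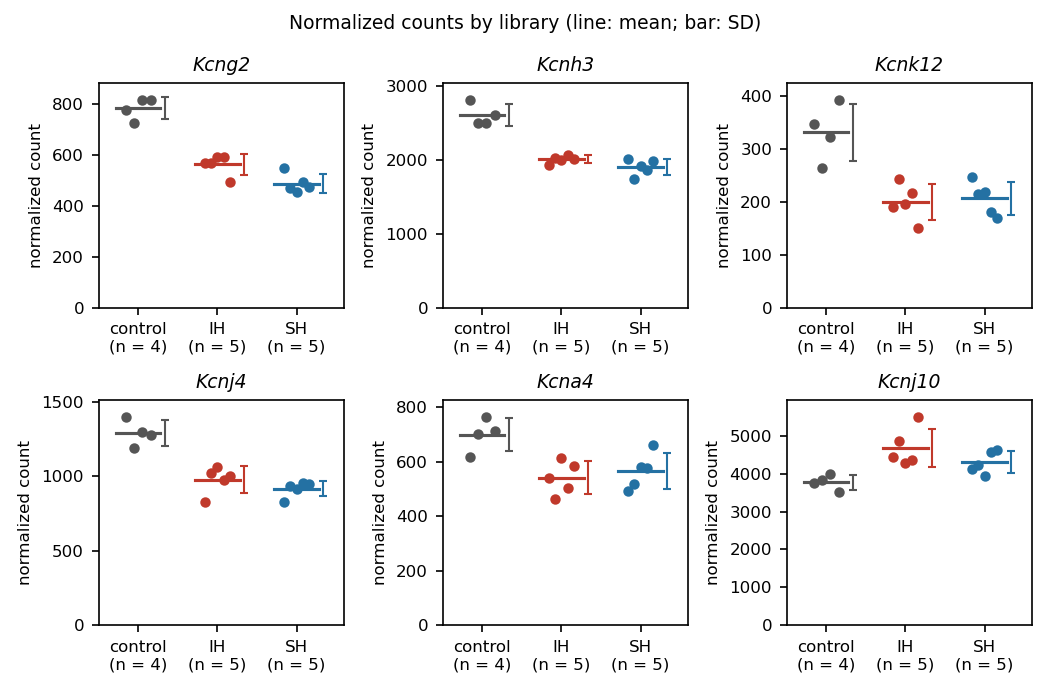
Normalized counts of 6 potassium channel genes in each library of control (n = 4), IH (n = 5) and SH (n = 5). Points are libraries, lines are means and bars are SD. Kcng2, Kcnh3, Kcnk12 and Kcnj4 show no overlap of control with either hypoxia group, and Kcna4 and Kcnj10 overlap between control and SH.

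Among inward rectifiers, Kcnj4 fell and Kcnj10 rose. Kcnj4 encodes Kir2.3, which holds neurons near their resting potential, and lies on chromosome 15 from 79367321 to 79390032 (GRCm39). Its normalized counts were 1400, 1188, 1296 and 1276 in control 1 to 4, 828.6, 1024, 1063, 973.7 and 1001 in IH 1 to 5, and 829.9, 935.3, 917.4, 957.1 and 950.3 in SH 1 to 5. Every hypoxia library was below every control, and the IH and SH ranges overlapped. Kcnj4 fell by 24.2% in IH (log2 fold change -0.40, SE 0.0773, adjusted p = 0.00576, edgeR) and fell by 28.9% in SH (-0.49, SE 0.0773, adjusted p = 0.000983). Both calls were lost with GC content and length trends removed, at -0.25 (adjusted p = 0.101, edgeR) and -0.27 (adjusted p = 0.0678).

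Kcnj10 encodes Kir4.1, the channel by which astrocytes take up potassium, and lies on chromosome 1 from 172168765 to 172201652 (GRCm39). Its normalized counts were 3748, 3841, 3997 and 3518 in control 1 to 4, 4433, 4863, 4272, 4352 and 5504 in IH 1 to 5, and 4118, 4238, 3947, 4569 and 4628 in SH 1 to 5. All IH libraries were above all controls, and SH 3 lay within the control range. Kcnj10 rose by 24.1% in IH (log2 fold change 0.31, SE 0.0767, adjusted p = 0.0185, edgeR). In SH the value was 0.19 (95% interval 0.025 to 0.35, adjusted p = 0.0923, edgeR), and IH differed from SH by 0.12 (-0.029 to 0.28, adjusted p = 0.454). The IH call was lost without control 1 (adjusted p = 0.0513, edgeR), without control 4 (0.0593) and with GC content and length trends removed (0.26, 0.0524). The SH value passed without IH 5 (0.19, adjusted p = 0.0455, edgeR).

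Some astrocyte markers were higher in the same groups. Of 10 astrocyte markers 3 were in the deposited table and tested, and 2 of them, Gjb6 and Glul, were higher in IH and SH. The authors had limited the table to genes with a signal away from that of controls, so markers that did not change may be absent. Gjb6, a gap junction protein, had log2 fold changes of 0.47 in IH and 0.30 in SH (adjusted p = 0.00203 and 0.0134, edgeR). Glul, glutamine synthetase, had 0.29 and 0.22 (adjusted p = 0.018 and 0.041). Gfap, the astrocyte filament protein, was at 0.052 and -0.12 and was not called. The sum of these 3 markers, in normalized counts, was 35675 to 39537 in control, 42384 to 48881 in IH and 38612 to 47349 in SH. Glul made up most of it, with a control mean of 28994 beside 8525 for Gfap and 801.8 for Gjb6. The part of astrocyte markers in the Kcnj10 result was not tested. Kcnj16, which encodes Kir5.1 and pairs with Kir4.1, was at 586.9 ± 34.7 (SD, n = 4) in control, 602.6 ± 158.6 (n = 5) in IH and 588.5 ± 150.9 (n = 5) in SH, with log2 fold changes of 0.037 (95% interval -0.38 to 0.46) and 0.0029 (-0.42 to 0.42).

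Of all 10 inward rectifiers, 8 were above 0 in IH and 5 in SH, with medians of 0.063 and -0.025. The G protein-gated subunit Kcnj9 lies 5.2 kb from Kcnj10 on chromosome 1. Kcnj9 had normalized counts of 2976, 2470, 2481 and 2357 in control 1 to 4, 2566, 2579, 2070, 2298 and 1805 in IH 1 to 5, and 2258, 2301, 2457, 2030 and 1913 in SH 1 to 5. The groups overlapped, and its log2 fold changes were -0.18 in IH (adjusted p = 0.251, edgeR) and -0.23 in SH (adjusted p = 0.132), opposite in sign to its neighbour. Kcnj6, the G protein-gated partner of Kcnj9, had 0.0092 (95% interval -0.35 to 0.37) and 0.04 (-0.32 to 0.40). Kcnj8, the vascular subunit of ATP-sensitive channels, was at 74.8 ± 14.9 (SD, n = 4) in control, 76.7 ± 16.7 (n = 5) in IH and 66.9 ± 14.5 (n = 5) in SH.

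Kcnj13 and Kcne2 are channel genes of the choroid plexus epithelium and followed its marker Ttr. Kcnj13 had normalized counts of 7.28, 14.5, 2.32 and 575.6 in control 1 to 4, 392.9, 12.2, 16.7, 437.1 and 37.5 in IH 1 to 5, and 568.7, 284.8, 23.1, 0 and 171.3 in SH 1 to 5. The 6 libraries with over 10000 Ttr counts had between 171.3 and 575.6, and the other 8 had between 0 and 37.5. Kcne2, a small auxiliary subunit, had 105.7 to 429.8 in the same 6 libraries and 3.65 to 28.2 in the others. Neither was called, and the 95% intervals were too wide to show a difference, for example -2.62 to 2.72 for Kcne2 in IH vs. control. All 3 groups held libraries of both kinds, 1 of 4 in control, 2 of 5 in IH and 3 of 5 in SH.

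**Figure D3:**
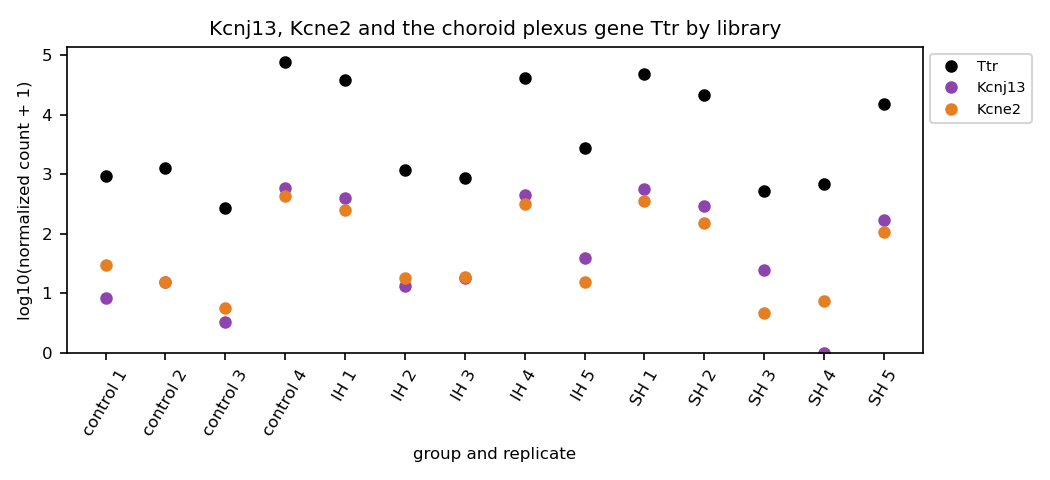
Kcnj13, Kcne2 and the choroid plexus gene Ttr in each library, as log10 of the normalized count plus 1. The 3 genes are high together in control 4, IH 1, IH 4, SH 1, SH 2 and SH 5, and low in the other libraries.

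Among the tandem pore domain channels, which carry background current, Kcnk12 fell in both groups. It lies on chromosome 17 from 88049106 to 88105511 (GRCm39). Its normalized counts in control 1 to 4 were 348.5, 263.7, 322.3 and 393.9. In IH 1 to 5 they were 191.2, 244.6, 196.8, 218 and 150.7, and in SH 1 to 5 they were 248.1, 215.1, 219.9, 181.2 and 170.4. All hypoxia libraries were below the lowest control, control 2. Kcnk12 fell by 39.7% in IH (log2 fold change -0.73, SE 0.155, adjusted p = 0.0095, edgeR) and fell by 37.6% in SH (-0.68, SE 0.155, adjusted p = 0.00759). IH and SH differed by -0.05, with a 95% interval from -0.37 to 0.27.

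The other 5 tandem pore domain channels were not called. Kcnk13, the closest relative of Kcnk12 and known from microglia, had 121, 157.4, 112.3 and 123 in control 1 to 4, 153.6, 134.5, 200.4, 143.9 and 290.3 in IH 1 to 5, and 166.8, 149.6, 193.2, 173.7 and 202.3 in SH 1 to 5. Control 2 overlapped both groups, and the log2 fold changes were 0.53 (95% interval 0.083 to 0.97, adjusted p = 0.106, edgeR) and 0.46 (0.021 to 0.91, adjusted p = 0.122), opposite in sign to those of Kcnk12. Without IH 5, the highest library, the IH value was 0.30 (adjusted p = 0.256, edgeR) and the SH value 0.46 (0.0469). The summed microglia markers were 4866 to 5404 in control, 4494 to 5609 in IH and 3672 to 4535 in SH. The acid-sensitive channel Kcnk3 had 380.4, 314.9, 306.8 and 278.6 in control 1 to 4, 278, 304.7, 271.9, 285.8 and 253.7 in IH 1 to 5, and 297.9, 244.8, 313.5, 209.9 and 214.1 in SH 1 to 5. Its groups overlapped (-0.32 in SH, adjusted p = 0.0908, edgeR), and it passed in SH without SH 3 (-0.40, adjusted p = 0.0447). Kcnk10, a stretch-sensitive channel, had 359.4, 298.4, 340.9 and 326.4 in control 1 to 4, 320.8, 374.7, 293.4, 241.3 and 237.6 in IH 1 to 5, and 294.4, 297.1, 296.5, 224.9 and 266 in SH 1 to 5. All its SH libraries were below all controls, yet the value (-0.26, adjusted p = 0.171, edgeR) did not pass. Kcnk9, the second acid-sensitive channel and the most abundant of the subfamily, was at 3161 ± 374.8 (SD, n = 4), 3383 ± 531.3 and 3478 ± 474.8 (n = 5 each) in control, IH and SH.

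Of the subunits of channels opened by calcium or sodium, Kcnmb4, Kcnn1 and Kcnt2 were called in SH, and Kcnmb2, Kcnn2 and Kcnt1 were not. Kcnmb4 encodes the neuronal beta4 subunit of the large-conductance calcium-activated channel, and lies on chromosome 10 from 116253766 to 116309848 (GRCm39). Kcnmb4 had normalized counts of 1073, 934, 975.3 and 918.4 in control 1 to 4, 896.6, 865.1, 911.2, 892.2 and 756.1 in IH 1 to 5, and 767, 724.3, 815.3, 797.1 and 800.9 in SH 1 to 5. Both hypoxia groups lay below all controls. Kcnmb4 fell by 19.9% in SH (log2 fold change -0.32, SE 0.0719, adjusted p = 0.00715, edgeR), and the IH value was -0.17 (SE 0.0718, adjusted p = 0.118). IH was above SH by 0.15 (95% interval 0.00099 to 0.29, adjusted p = 0.313, edgeR). With GC content and length trends removed, the sign turned to 0.073 in IH and 0.02 in SH (adjusted p = 0.589 and 0.897, edgeR). Kcnmb4 has the highest transcript GC content of the members, 63.2%.

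Kcnn1 and Kcnn2 encode small-conductance calcium-activated channels that slow firing after bursts. Kcnn1 had normalized counts of 354, 392.1, 398.2 and 374.3 in control 1 to 4, 378.3, 354.7, 353, 351.4 and 298.9 in IH 1 to 5, and 315.4, 318.6, 329.3, 307.4 and 282.4 in SH 1 to 5. SH lay below all controls and IH overlapped them. Kcnn1 fell by 18.2% in SH (log2 fold change -0.29, SE 0.0849, adjusted p = 0.026, edgeR). This call was lost without control 2, control 3, control 4, SH 4 or SH 5 (adjusted p between 0.0507 and 0.0712, edgeR) and with GC content and length trends removed (-0.18, adjusted p = 0.292). Kcnn2 had 1643, 1586, 1671 and 1678 in control 1 to 4, 1587, 1532, 1516, 1370 and 1233 in IH 1 to 5, and 1568, 1457, 1407, 1221 and 1442 in SH 1 to 5. Its SH libraries were also below all controls, but -0.21 (SE 0.0808, adjusted p = 0.0725, edgeR) did not pass. It passed without IH 5 (adjusted p = 0.045, edgeR), without SH 1 (0.0397) and with 80th percentile scaling (0.0488).

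Kcnt2, a sodium-activated channel on chromosome 1 from 140173436 to 140541709 (GRCm39), was the member called higher in SH. Kcnt2 had normalized counts of 657, 754.3, 775.5 and 684.4 in control 1 to 4, 577.9, 815.1, 803.9, 786.4 and 791.9 in IH 1 to 5, and 896.3, 833.9, 856.6, 934.6 and 841 in SH 1 to 5. All SH libraries were above all control and all IH libraries, and it was the single member whose IH and SH groups did not overlap (4.46% of all genes tested had no such overlap, 1.83% with IH lower). Kcnt2 rose by 21.5% in SH (log2 fold change 0.28, SE 0.0948, adjusted p = 0.0469, edgeR), and IH was at 0.072 (adjusted p = 0.63). IH vs. SH was -0.21 (95% interval -0.40 to -0.019, adjusted p = 0.258, edgeR). The SH call was lost without any 1 of 10 of the 14 libraries, up to an adjusted p of 0.137 without control 1. It was also lost with 80th percentile scaling (0.26, adjusted p = 0.0618, edgeR), with the study's processing (0.27, adjusted p = 0.061, limma) and with GC content and length trends removed (0.058, adjusted p = 0.795). Its relative Kcnt1 was at 1786 ± 350.5 (SD, n = 4) in control, 1622 ± 298 (n = 5) in IH and 1792 ± 212.9 (n = 5) in SH.

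**Figure D4:**
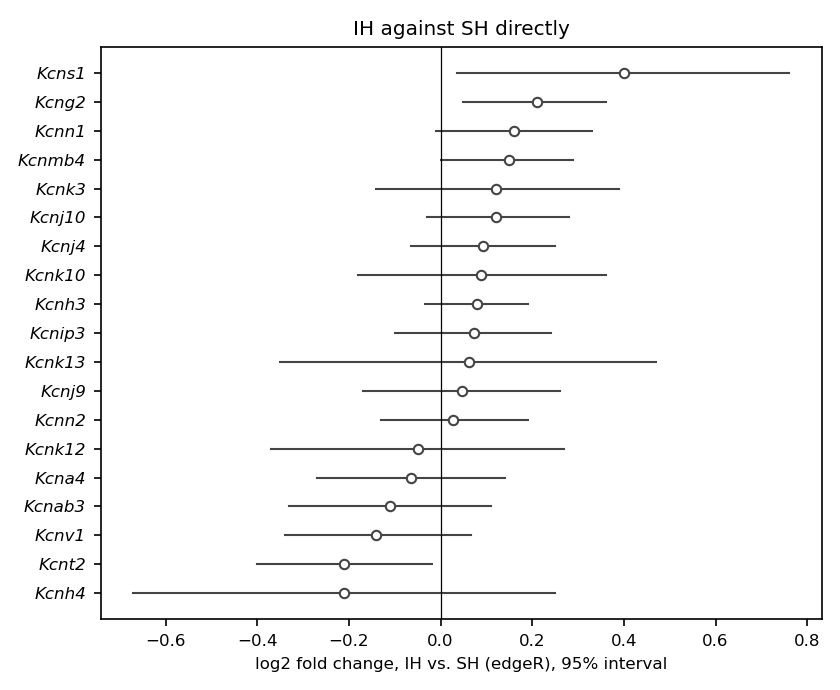
Log2 fold changes of IH against SH for the 19 members given by library, with 95% intervals from edgeR. All points are open, since none had an adjusted p under 0.05, and the intervals of Kcns1, Kcng2, Kcnmb4 and Kcnt2 leave out 0.

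The direct comparison of IH with SH sets reoxygenation cycles against steady low oxygen, and both groups came from the main experiment. The paper describes different gas delivery systems for them and, in IH, low oxygen for only part of each cycle. Cycling, apparatus and time at 10% oxygen therefore cannot be told apart. For the genes lower in both groups, the 95% intervals of the log2 difference were -0.27 to 0.14 for Kcna4, -0.035 to 0.19 for Kcnh3, -0.065 to 0.25 for Kcnj4, -0.37 to 0.27 for Kcnk12 and 0.048 to 0.36 for Kcng2. That of Kcng2 left out 0, though its adjusted p did not pass. The study's own limits (over 0.58 in size on the log2 scale at an unadjusted p below 0.05) were met by 2 members in IH vs. control, among them Kcnk12, and by 2 in SH vs. control, Kcnk12 and Kcng2, all lower. Among all genes tested, 1.13% met them as lower in IH and 1.5% in SH. In IH vs. SH 0 members met them (edgeR, 0.981% of all genes), with 4 members at an unadjusted p under 0.05 in edgeR (15.8% of all genes) and 0 called by DESeq2. Groups did not overlap for 8 members in IH vs. control, 7 lower and 1 higher (15.1% of all genes tested, 7.48% lower and 7.66% higher), and for 10 in SH vs. control, 9 lower and 1 higher (19.4%, 10.6% lower and 8.76% higher).

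Fold changes of the members went with the GC content of their transcripts. Across the 49 members, Pearson's r between the log2 fold change and the GC content was -0.364 in IH vs. control and -0.528 in SH vs. control, and across 7307 genes it was -0.418 and -0.505. These points share the same libraries and genes are not independent, so r is given as a description. The 9 members called lower in IH or SH had a median GC content of 58%, and the other 40 members 51.9%. Kcnt2, higher in SH, had the lowest value of the members, 37.7%, whereas Kcnh3 was at 62.6% and Kcnj4 at 60.8%. With trends on GC content and length removed from each library, 5 members were called in IH and 4 in SH, where 5.78% and 6.88% of all genes were. Kcna4, Kcng2, Kcnh3 and Kcnk12 were called in both comparisons, and Kcnv1 in IH. The values of Kcng2 were -0.41 in IH (adjusted p = 0.0139, edgeR) and -0.61 in SH (0.000921). Kcnk12 was at -0.65 (adjusted p = 0.0187, edgeR) and -0.60 (0.0257). The cause of the trend was not tested.

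**Figure D5:**
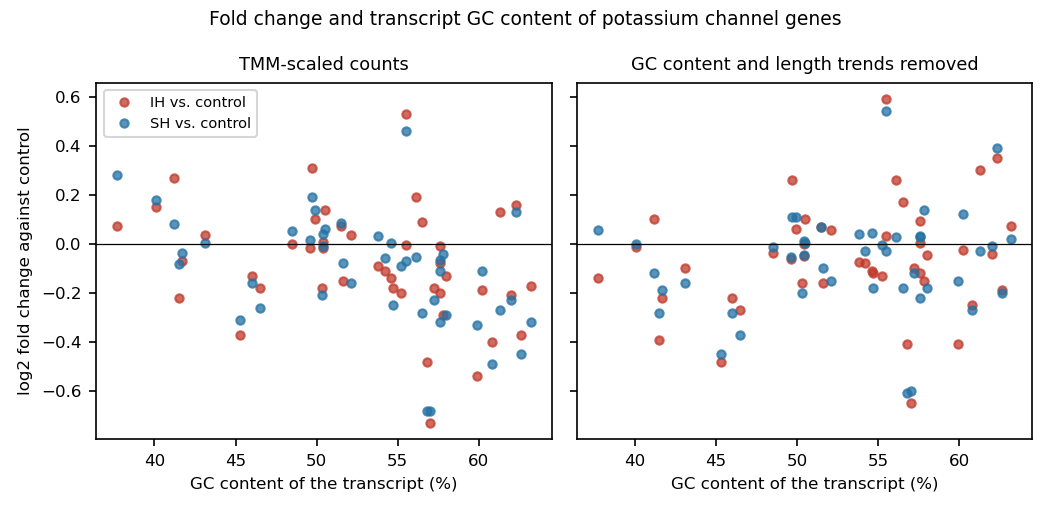
Log2 fold change against control and GC content of the transcript for 45 potassium channel genes (Kcne2 and Kcnj13 are among those left out), in IH (red) and SH (blue). Left, with TMM scaling, points at high GC content lie lower. Right, with these trends removed in every library, that slope is flatter, and Kcnk12 and Kcng2 remain the lowest points in SH.

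Markers of the neurons that hold most of these channels were summed as well, over those the filtered table holds. Of 4 neuron markers tested 0 were called in IH (edgeR) and 1 in SH (Thy1, lower), and their sums were 27512 to 29745 in control, 24587 to 28891 in IH and 25713 to 27155 in SH. Of 8 dentate granule cell markers tested, 2 were higher in IH and 3 in SH, with sums of 9556 to 11847, 12865 to 18318 and 12059 to 18759. Of 11 markers of CA1 and CA3 pyramidal neurons 0 were called in either comparison (edgeR), and their sums were 26362 to 28763, 20477 to 27701 and 21945 to 27582. The part of these markers in the values of the neuronal channels was not tested.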

How the data were processed

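Hippocampal poly-A RNA was sequenced with a directional kit in 14 libraries. Per the labels and methods, the authors trimmed reads with fastp 0.23.4, aligned them to GRCm39 with HISAT2 2.2.1 and counted them with StringTie 2.2.1. The deposited values are estimated counts per gene, not normalized between libraries. For 10 genes the values had fractions, which were rounded. The authors kept protein-coding genes above a count of 40 with a processed signal away from that of controls. Shares of called genes, adjusted p-values, marker sums and list medians therefore hold only within this table. Other potassium channel genes, such as Kcna1, Kcna2, Kcnc1, Kcnd2, Kcnq3 and Kcnma1, were not analysed here.

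Counts were scaled by TMM and tested by edgeR 4.0.16 (quasi-likelihood, R 4.3.3) in 1 fit of the 3 groups, over 7338 genes that averaged 40 counts or more in each group, with Benjamini-Hochberg adjustment. SEs were taken from the log2 fold change and the F statistic. Named with a value in every library are members called, those at the study's limits, and the next smallest p-values up to 20. Named with levels are the most abundant member of each subfamily and some chosen members. A few genes that this rule names are not reported here, but the counts include them. Members and lists were chosen with earlier results of these data known. Alternatives were DESeq2 1.42.0, other scalings and filters, only the groups compared, a replicate block, GC content and length trends removed by loess, the study's processing with limma 3.58.1, stricter or the study's thresholds, and leaving out each library. Leaving out the libraries rich in choroid plexus RNA was added after the data were seen. On simulated data of 7299 genes for IH vs. control, the test recovered 60.2% of genes changed by 0.6 on the log2 scale. It recovered 91.6% of those changed by 1, with 10 false calls. The simulation held no GC content trend, choroid plexus RNA or experiment difference. Many called members changed by less than 0.6, a size it did not include, so these rates do not describe their calls. No libraries were duplicates (lowest chi-square per degree of freedom 8.96 over 26 pairs). Symbols were matched to GENCODE vM39, 7707 directly and 16 by synonyms. Promoter windows are from RefSeq (GRCm38.p6).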

Additional observations from a re-analysis of the deposited data

Results flagged for a closer look

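In groups of 4 or 5 libraries, Dixon's test singled out 13 of 153 groups over all 51 members, where chance gives 7.65. Kcnj13 in control 4 was at 575.6 normalized counts, against 2.32 to 14.5 in the other controls, and Kcne2 in control 4 was at 429.8, against 4.65 to 28.2. Control 4 also had 77671 counts of Ttr, the highest of all libraries. Control 1 stood above the other controls in Kcnc4 (1865, against 1298 to 1360), Kcnd1 (355.8, against 279.7 to 290.5), Kcnip3 (2481, against 2184 to 2202), Kcns1 (275.7, against 192.1 to 203.5) and Kcnt1 (2310, against 1572 to 1643). Without control 1, the SH call of Kcnip3 was lost (log2 fold change -0.20, adjusted p = 0.144, edgeR). In IH, Kcng2 was at 494.7 in IH 5, against 567.1 to 591.6 in the others, and Kcnt2 was at 577.9 in IH 1, against 786.4 to 815.1. Both calls of Kcng2 were kept without IH 5. The same library was high in Kcna5 (54.5, against 25 to 31.3) and Kcnj2 (424.9, against 176.6 to 246.9). Kcna3 was at 179.6 in control 2, against 129.4 to 135.6, and Kcnk6 at 92.3 in SH 3, against 69 to 73.8.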

How the results depend on the processing

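In IH vs. control 7 members were called, and in SH vs. control 9. Without single libraries these counts ran from 4 to 7 (lowest without control replicate 4) and from 5 to 11 (lowest without control replicate 2, control replicate 4 or SH replicate 4), and IH vs. SH stayed at 0 (edgeR). Of all genes, 5.26% to 13.3%, 12.4% to 23.8% and 1.2% to 2.43% were then called. At an adjusted p under 0.01 there were 4 and 5 members, where 2.78% and 7.92% of all genes passed, and at the study's limits 2 and 2. GC content and length trends removed left 4 in SH. Leaving out the choroid plexus-rich libraries, chosen after the data were seen, left 0 and 1. That set had 3 control, 3 IH and 2 SH libraries, so fewer genes passed in all. Kcnmb4 turned its sign to 0.073 in IH and 0.02 in SH with GC content and length trends removed; the cause was not tested. Calls of Kcng2, Kcnh3 and Kcnk12 at an adjusted p under 0.05 were kept in every alternative fit other than leaving out these libraries, where Kcng2 kept its SH call. Of 719 values of single members under an alternative, 632 kept their direction and side of the threshold, 77 lost the call, 8 passed newly and 2 turned sign.

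Replicate numbers were not treated as pairs, since the correlation of deviations between same-numbered libraries was between -0.3 and 0.462 over 13 pairs and above 0.1 in 6. Of 14 libraries, 5 correlated best with their own number. With a replicate block 7 members were called in IH, 7 in SH and 0 in IH vs. SH, where 10.1%, 19.7% and 2.02% of all genes were, and the SH calls of Kcnn1 (adjusted p = 0.0577, edgeR) and Kcnt2 (0.0542) were lost.

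Members of low count, such as Kcnh4 and Kcnk6, have wide 95% intervals.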

Other observations

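Proteins that bind potassium channels and the pumps that restore the potassium gradient were listed separately. Of 36 listed partner proteins 14 were tested, and Dlg1, a scaffold that clusters channels at synapses, was higher in both groups. Dlg1 had 2240 ± 141.5 normalized counts (SD, n = 4) in control, 2723 ± 75 (n = 5) in IH and 2782 ± 111.9 (n = 5) in SH. On the log2 scale these differed from control by 0.28 (SE 0.0535, adjusted p = 0.00534, edgeR) and 0.31 (SE 0.0535, adjusted p = 0.00171), and neither passed with GC content and length trends removed (adjusted p = 0.0647 and 0.0731). The median of the 14 tested was 0.15 in IH and 0.12 in SH, beside -0.015 and 0.0035 for all genes tested. Partner genes that did not change may be absent from the filtered table.

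Of 16 listed pump and cotransporter genes 6 were tested and 0 were called in IH (edgeR). In SH, Atp1b3, a beta subunit of the sodium pump, was higher (0.25, adjusted p = 0.0186, edgeR), and Fxyd7, a small regulator of the pump in neurons, was lower (-0.34, adjusted p = 0.0245). With GC content and length trends removed neither passed, at 0.21 for Atp1b3 (adjusted p = 0.0745, edgeR) and -0.052 for Fxyd7 (0.813).

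Other marker lists were also summed, over the genes the filtered table holds. Of 9 oligodendrocyte markers tested 1, Ermn, was higher in each hypoxia group, and the sums were 75922 to 112291 in control, 87962 to 199225 in IH and 86600 to 149827 in SH. Of 6 microglia markers 3 were lower in SH and 0 were called in IH (edgeR). Of 12 endothelium and mural cell markers 1 was higher in IH and 2 in SH, of 4 oligodendrocyte precursor markers 1 was higher in each, and of 9 inhibitory neuron markers 0 were called in IH (edgeR) and 1 was higher in SH. Of 11 choroid plexus and ependyma and 10 thalamus and striatum markers, 0 were called in either comparison (edgeR). All 4 erythrocyte genes tested, which encode globins, were lower in IH, with a median log2 fold change of -0.69, and 0 were called in SH (edgeR), where the median was -0.31.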
